A study of Homo sapiens with 8 samples.

Results

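Heat shock proteins and their J-domain partners are the chaperones that fold, hold and unfold other proteins, and 74 rows of a 20323-row gene table carried their symbols. Rows were taken by symbol alone, as HSPA, HSPB, HSPD, HSPE or HSPH followed by a number, HSP90AA1, HSP90AB1 or HSP90B1, and DNAJA, DNAJB or DNAJC followed by a number. The 74 rows hold 72 symbols, since DNAJB11 and DNAJC14 each have a second row that the table describes as a protein without a gene name of its own. RNA was sequenced from H2452, an established human cell line of pleural biphasic mesothelioma (genotype given as wt). DPT is deoxypodophyllotoxin, a lignan from plants that keeps tubulin from building microtubules. The 4 DPT libraries came from cells kept for 48 h with 20 nM DPT, and the 4 DMSO libraries from cells kept for 48 h with the solvent DMSO alone. The design text calls the 4 of each group biological replicates, but no culture or day is given, so p-values measure the spread between these libraries.

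HSP70 proteins bind short stretches of unfolded protein, and a J-domain protein (named DNAJ in humans) brings them the client and switches on their ATPase. HSP110 proteins exchange the nucleotide that resets HSP70, HSP90 takes over clients such as kinases and steroid receptors, HSP60 with its lid HSP10 folds proteins inside mitochondria, and small heat shock proteins hold unfolded protein without using ATP. In the cytosol the inducible members are switched on by the transcription factor HSF1, and in the endoplasmic reticulum (ER) by the unfolded protein response. Tubulin itself is folded by a chaperonin that works with HSP70, and cancer cell lines usually express many of them at high basal levels.

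After DPT, 6 of the 61 members with enough reads to test were higher and 0 were lower over all 8 libraries by the quasi-likelihood test of edgeR. The 6 were HSPA8, HSPA6, HSPH1, DNAJC2, DNAJC25 and DNAJB5. A gene is called here at a Benjamini-Hochberg adjusted p under 0.05 over the 12648 genes tested. Of the 61 members, 9.84% were called higher, beside 5.68% of all tested genes, and 0 were called lower, beside 5.29%. At an unadjusted p under 0.05 the counts were 16 higher and 4 lower, beside 1713 and 1644 of the 12648 genes tested. DESeq2 called 11 members higher (18%) and 1 lower (1.64%), beside 8.03% and 7.81% of all genes it tested. The median log2 fold change was 0.08 over the members and 0.00 over all tested genes, and 37 of the 61 were above 0. The changes were small, with 5 of the 6 called members between 1.22 and 1.45-fold higher and HSPA6, at a few counts per library, 3.67-fold higher. HSPA6 passed the filter on low counts only through the DPT libraries, where it is high, so its call is a description and lends the count of 6 no support. The other 13 members were not tested. Of these, 2 had no counts and no library held more than 13 counts of any, so nothing is said of their response.

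A pair of libraries stood apart from the rest along the first principal component, DPT replicate 2 (29.26) and DMSO replicate 3 (40.76), with the other 6 between -25.6 and -1.016. Many members differ between this pair and the other 6 libraries, so results are also given from a fit with a term for the pair and from the 6 other libraries alone. The labels do not name the pair, which was picked from these same values. Adjusted p-values from the fit with the term and from the 6 libraries may therefore be too small. With the term, 20 members were higher and 5 lower, beside 16.9% and 17.0% of all tested genes. That is 32.8% and 8.2% of the 61 members. In the 6 libraries, 20 members were higher and 6 lower, beside 17.0% and 17.1% of all genes tested there. Single libraries also move the count. Leaving out one library at a time gave 11 members higher without DPT replicate 2, 10 without DMSO replicate 3, 3 without DPT replicate 1, 1 each without DPT replicate 3, DMSO replicate 2 and DMSO replicate 4, and 0 without DPT replicate 4 or DMSO replicate 1. The share of all tested genes called higher moved too. It was 9.26% without DPT replicate 2, 6.73% without DMSO replicate 3 and 3.6% without DPT replicate 1. In the fits that gave 1 or 0 members it was 2.6% to 2.93%.

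Library totals were 14964422 to 17205395 counts, so that 1 CPM (a count scaled to library size) stood for 14.75 to 17.13 counts. The labelled tumour type was read against markers of its epithelioid and sarcomatoid parts and of cells that a pure line should lack. Of 10 mesothelial or epithelioid markers all were tested, 0 higher (1 at an unadjusted p under 0.05, by DESeq2 and with the pair term) and 2 lower (UPK3B and KRT18; 6 at an unadjusted p under 0.05, 5 by DESeq2 and 6 with the pair term), with a summed level of 1208 to 1794 FPKM in DPT libraries and 1794 to 2525 in DMSO libraries, mostly KRT8 and KRT18. The 6 mesenchymal markers summed to 3839.9 to 4461 FPKM in DPT libraries and 2677 to 3582 in DMSO libraries, nearly all VIM, which was called higher while 4 of the others were called lower. The leukocyte markers PTPRC, CD3E and LYZ and the endothelial marker VWF were at or near 0, whereas CD68 averaged 76.4 FPKM in DPT and 66.4 in DMSO libraries. The 6 leukocyte markers summed to 60.92 to 99.4 FPKM in DPT and 60.52 to 91.67 in DMSO libraries, mostly CD68. The 4 endothelial ones summed to 0.69 to 2.033 FPKM in DPT and 0.268 to 1.315 in DMSO libraries. Of 2 leukocyte markers tested, 0 were called by edgeR (0 at an unadjusted p under 0.05, 0 by DESeq2), and 1 was higher and 1 lower with the pair term. Of 3 endothelial markers tested, 1 was called higher, KDR (2 at an unadjusted p under 0.05, 1 by DESeq2, 2 with the term; median log2 fold change 0.92). KDR had 39, 12, 82 and 35 counts in DPT libraries and 8, 7, 2 and 8 in DMSO libraries (2.61 on the log2 scale, adjusted p = 0.0257), so it too passed the filter only through the DPT libraries. FPKM is the deposited level scaled by transcript length and library size, the scale on which genes can be compared with each other. The part of these shifts in the chaperone results was not tested, and in bulk RNA fewer cells of a kind and less RNA per cell cannot be told apart.

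Promoters are shown first for the members that carry a heat shock element, the sequence HSF1 is known to bind. The element is a run of GAA units that alternate between the strands. It was searched on both strands as the pair of units GAANNTTC or TTCNNGAA, and as 3 alternating units, which contain such pairs, in windows of 250 bases before to 50 bases after each annotated start (RefSeq, GRCh38.p14). Promoters were found for 64 of the 72 symbols, 83 in all. A pair of units stood in 23 of the 83 (27.7%), beside 13.5% of the 35116 promoters of all genes, and 3 units in 7 (8.43%), beside 0.49% (172). Capitals mark the 3-unit match. For the constitutive HSP70 HSPA8 (chr11:123062137-123062386, minus strand) and for the strictly inducible HSP70 HSPA6 (chr1:161524290-161524539, plus strand) the 250 bases before the start are printed, since both were called in all 8 libraries.
HSPA8: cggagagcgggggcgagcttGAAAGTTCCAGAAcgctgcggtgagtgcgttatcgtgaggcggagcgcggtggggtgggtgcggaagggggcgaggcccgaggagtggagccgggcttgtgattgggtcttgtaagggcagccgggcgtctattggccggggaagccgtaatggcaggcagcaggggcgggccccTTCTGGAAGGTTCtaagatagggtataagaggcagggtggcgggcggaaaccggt
HSPA6: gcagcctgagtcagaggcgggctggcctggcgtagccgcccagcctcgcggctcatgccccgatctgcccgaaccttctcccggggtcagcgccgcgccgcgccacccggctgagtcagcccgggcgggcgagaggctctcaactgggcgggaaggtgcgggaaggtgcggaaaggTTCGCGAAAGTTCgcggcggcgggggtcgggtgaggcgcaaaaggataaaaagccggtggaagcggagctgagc

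HSPA8 has 1 match at -230 to -218 and a closer one at -55 to -43, and HSPA6 has 1 at -74 to -62, counted from the start. The other 5 members with 3 units are shown by the stretch around the match, with HSP90AA1 at chr14:102087085-102087164 (minus strand), HSP90AB1 at chr6:44247763-44247857 (plus), DNAJB6 at chr7:157336849-157336908 (plus), HSPD1 at chr2:197500060-197500089 (minus) and DNAJA1 at chr9:33025269-33025297 (plus). The match of DNAJA1 lies just after the start, and that of HSPD1 before the more downstream of its annotated starts, where 2 overlapping matches run together.
HSP90AA1: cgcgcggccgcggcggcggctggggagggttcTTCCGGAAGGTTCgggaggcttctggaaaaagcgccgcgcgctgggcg
HSP90AB1: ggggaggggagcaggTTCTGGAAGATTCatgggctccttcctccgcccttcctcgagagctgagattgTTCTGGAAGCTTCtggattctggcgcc
DNAJB6: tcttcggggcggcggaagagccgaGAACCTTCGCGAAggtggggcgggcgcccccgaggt
HSPD1: cattTTCTGGAAAGTTCTGGAAccgagcga
DNAJA1: ccgggcgGAACTTTCCAGAAcgctcggtg
Of these 7 members, 2 were higher in all 8 libraries (HSPA8 and HSPA6), while all 7 were higher both with the pair term and in the 6 libraries. HSPA6 is in each of these counts, though it passed the filter only through the DPT libraries. The HSPD1 stretch also lies within the row of HSPE1 (chr2:197499994-197503457, plus strand). The window of HSPE1 itself holds no 3-unit match, so HSPE1 is counted without one, and this rests on the window used. HSPE1 was not called (0.08 with the pair term, adjusted p = 0.66). Of the 10158 tested genes with a promoter, 5.7% were higher and 516 were lower in all 8 libraries. With the term 17.2% were higher and 1728 were lower, and in the 6 libraries 17.2% of 10189 were higher. Another 12 tested members have a pair of units and no 3-unit match. Of those 12, 0 were called in all 8 libraries, and with the term 4 were higher (HSPA1A, HSPA1B, HSPA9 and HSPB8), 1 was lower (DNAJB4) and 7 were not called, DNAJB1 among them. Among the 47 tested members that have a promoter and no 3-unit match, 4 (8.51%) were higher in all 8 libraries. These were HSPH1, DNAJC2, DNAJC25 and DNAJB5, which have no pair of units in the window either. With the term 13 of the 47 (27.7%) were higher and 5 lower, a count that takes in those 12. Outside the family, 45 tested genes have a 3-unit match, of which 3 were higher (6.67%) and 6 lower in all 8 libraries. With the term 6 of them were higher (13.3%) and 8 lower. Whether a match goes with a call was not tested. HSPA1A and HSPA1B carry a single pair of units, GAATATTC, and the 3 listed promoters of DNAJB1, each for another annotated start, hold 1, 2 and 0 pairs. A match is a run of letters and not a measured binding site.

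Among HSP70 proteins, HSPA8 (ENSG00000109971, chr11:123057489-123063230, minus strand, GRCh38), the constitutive HSC70 of the cytosol, was the most abundant of all members. It had 943, 1143, 977 and 974 FPKM in DPT libraries 1 to 4, against 771, 789, 893 and 779.5 FPKM in DMSO libraries 1 to 4. Every DPT library was above every DMSO library, and the highest of each group was the library of the pair that stood apart. The mean was 1009 ± 90.7 FPKM in DPT and 808 ± 57.2 in DMSO (SD, n = 4 each), and the fitted log2 difference 0.28 (SE 0.0776, adjusted p = 0.0455). That call lies close to the threshold, and it was kept without DPT replicate 2 or DMSO replicate 3 but lost without any one of the other 6 libraries (adjusted p 0.0214 to 0.131). It was also lost with no filter on low counts, at 0.27 (adjusted p = 0.0632). With the pair term the adjusted p was 1.09e-05 at the same 0.28. HSPA8 ranked 28 among all genes by mean FPKM in DPT and 47 in DMSO.

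HSPA6 (ENSG00000173110, chr1:161524540-161526910), an HSP70 that is near silent without stress, was called at a very low level. Its rounded counts were 15, 15, 25 and 13 in DPT libraries and 5, 1, 6 and 5 in DMSO libraries. The groups did not overlap, yet DPT libraries reached only 0.442 ± 0.138 FPKM and DMSO libraries 0.113 ± 0.0572 (SD, n = 4 each). HSPA6 passed the filter, a minimum count of 10, only through the DPT libraries, so its call is given as a description and not as support. The log2 fold change was 1.88 (SE 0.434, adjusted p = 0.0246), kept without DPT replicate 2 or DMSO replicate 3 and lost without any other single library (up to 0.0825). HSPA2, a testis-enriched HSP70, had 7 to 10 counts in DPT and 1 to 10 in DMSO libraries and was not tested.

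HSPA1A and HSPA1B, the classical stress-induced HSP70 pair on chromosome 6, encode nearly the same message, so reads may be split between them and their sum is the safer value. HSPA1A had 53.3, 41.5, 49.6 and 53.2 FPKM in DPT libraries and 39.2, 42.8, 40.2 and 42.3 in DMSO libraries. DPT replicate 2 fell among the DMSO values, and the other 3 DPT libraries lay above them all. Summed over both genes, the level was 199 ± 24.2 CPM in DPT and 167 ± 7.53 in DMSO (SD, n = 4 each), a ratio of 1.19 with overlapping groups. Neither passed the test in all 8 libraries (HSPA1A log2 fold change 0.22, adjusted p = 0.129; HSPA1B 0.28, adjusted p = 0.199). Both were higher with the pair term, HSPA1A at 0.22 (adjusted p = 0.00566) and HSPA1B at 0.27 (adjusted p = 0.0343), and in the 6 libraries, and both were called without DPT replicate 2 alone (0.30 and 0.38). Within the pair, HSPA1B was lower in DPT replicate 2 than in DMSO replicate 3 by a log2 difference of -0.11.

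HSPA5 and HSPA9 were not called by edgeR in all 8 libraries, although their groups did not overlap, and DESeq2 called both higher. HSPA5, the ER HSP70 known as BiP (ENSG00000044574, chr9:125234853-125241330), had 369, 379, 371 and 374 FPKM in DPT libraries against 315, 313, 347 and 317 in DMSO libraries. DMSO replicate 3 was the one DMSO library set off from the rest. The log2 fold change was 0.18 (SE 0.0619, adjusted p = 0.0928), and 0.18 with the pair term (adjusted p = 0.00129). HSPA9, the mitochondrial HSP70 mortalin, averaged 282 ± 17.6 FPKM in DPT and 236 ± 13.7 in DMSO (SD, n = 4 each), and its log2 fold change was 0.21 (adjusted p = 0.063, and 0.000437 under the pair term). HSPA5 was called without DMSO replicate 3 (0.22, adjusted p = 0.0321) and HSPA9 without DPT replicate 2 (0.24, adjusted p = 0.0227). HSPA13, a microsomal HSP70-like ATPase whose groups overlapped, stood at 0.13 on the log2 scale (adjusted p = 0.35, and 0.048 in the 6 libraries). HSPA12A, a divergent member named here after its values were seen, was the one HSP70 lower with the pair term (log2 fold change -0.28, adjusted p = 0.0265).

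**Figure D1:**
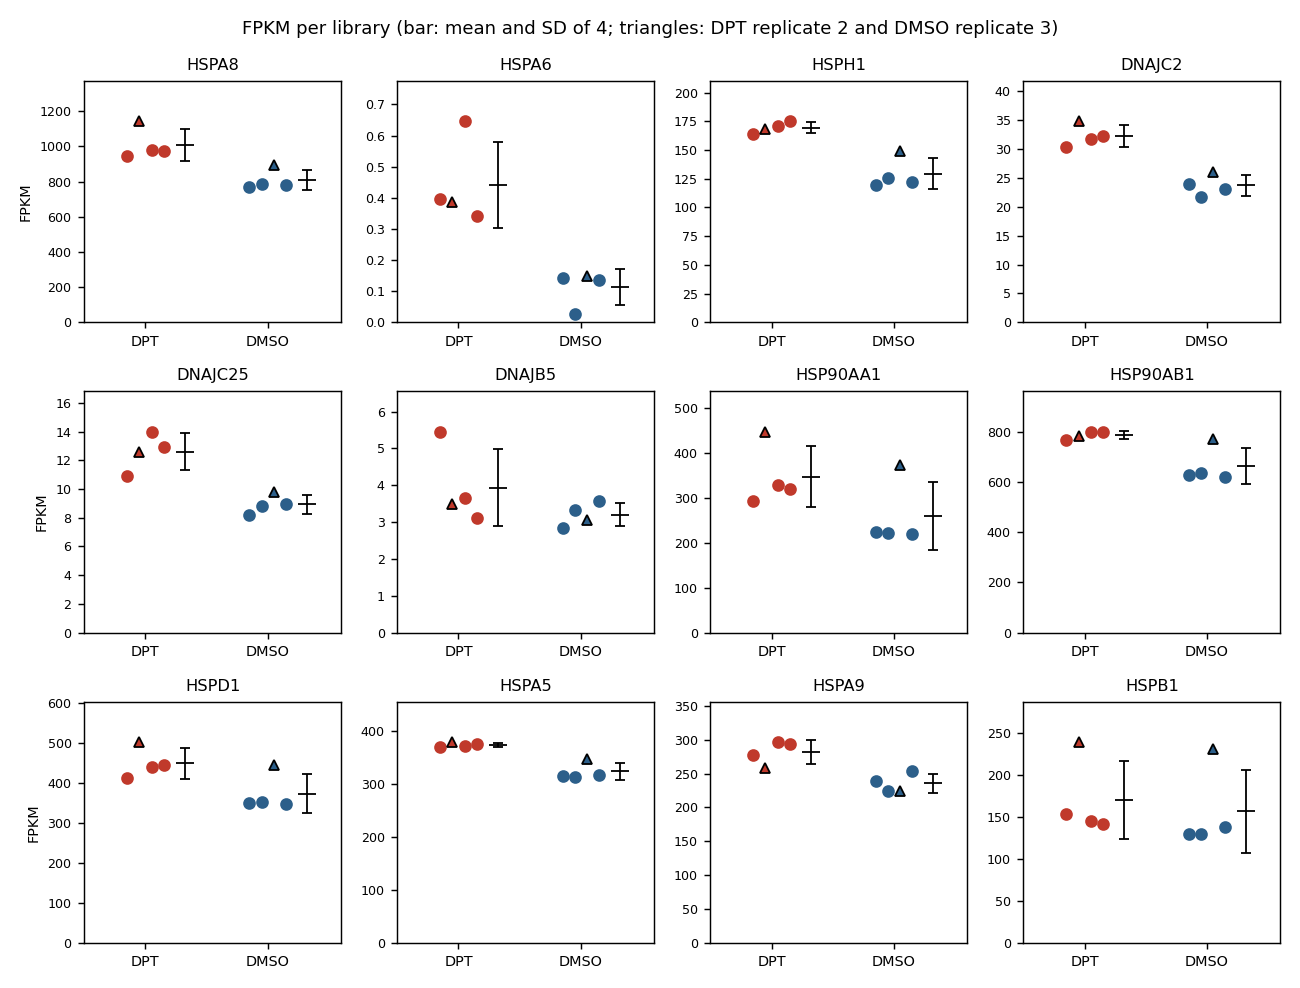
FPKM of 12 members in each library, DPT left of DMSO, each panel with its own axis from 0; points are libraries, triangles the pair that stood apart, bars mean and SD of 4. HSPA8, HSPA6, HSPH1, DNAJC2, DNAJC25, HSPA5 and HSPA9 do not overlap between groups, and the DMSO triangle of HSP90AA1 (374 FPKM) lies above 3 of the 4 DPT libraries.

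HSPH1, the main cytosolic HSP110 and a nucleotide exchange factor of HSP70 (ENSG00000120694, chr13:31134974-31162388, minus strand), was higher after DPT. It had 164, 168, 171 and 175 FPKM in DPT libraries, against 119.8, 126, 149.5 and 122 in DMSO libraries. The DPT libraries lay close together, and DMSO replicate 3 was the nearest of the DMSO libraries to them. The log2 fold change was 0.35 (SE 0.0771, adjusted p = 0.021), or 0.42 (adjusted p = 3.57e-07) in the 6 libraries. It was lost without any one of DPT replicates 3 and 4 and DMSO replicates 1, 2 and 4 (up to 0.0775). The related exchange factors HSPA4 (0.09, adjusted p = 0.327) and HSPA4L (0.26, adjusted p = 0.418) were not called under either fit. Their FPKM means were 75.9 and 3.78 in DPT and 69.2 and 2.77 in DMSO.

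J-domain proteins of the DNAJA and DNAJB types, which bind clients themselves, gave 1 call in all 8 libraries, beside 5.68% of all tested genes called higher. Of 3 DNAJA members tested 0 were called, and of 11 DNAJB members 1 (9.09%). That was DNAJB5, a cytosolic J-protein (ENSG00000137094, chr9:34989641-34998900), at 8.5, 5.87, 7.06 and 7.17 CPM in DPT libraries and 4.81, 5.29, 4.44 and 5.14 CPM in DMSO libraries. Its CPM groups did not overlap, and the fitted log2 difference was 0.54 (SE 0.148, adjusted p = 0.0465). On the FPKM scale the groups did overlap, with 3.12 to 5.46 FPKM in DPT and 2.85 to 3.56 in DMSO libraries, and the call was kept in 1 of the 8 fits that each left out a library, that without DPT replicate 2. It was also lost with no filter on low counts (0.53, adjusted p = 0.0679).

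DNAJB1, the HSP40 best known as an HSF1 target, had 73.9, 69.4, 70.1 and 64.6 FPKM in DPT libraries and 64.1, 65.5, 70.1 and 61.3 in DMSO libraries. Those groups overlapped, and the log2 fold change was 0.06 (adjusted p = 0.63, and 0.404 with the pair term). DNAJB6, which keeps aggregation-prone proteins soluble, averaged 122 ± 3.23 FPKM in DPT and 103 ± 4.68 in DMSO (SD, n = 4 each) with no overlap (0.15, adjusted p = 0.108, and 0.00931 with the term). DNAJB2 (0.31, adjusted p = 0.0535, and 0.00171), which sends clients to the proteasome, and the ER co-chaperone DNAJB11 (0.24, adjusted p = 0.0709, and 0.000968) were likewise called with the term, in the 6 libraries and by DESeq2, and DNAJB2 also without DMSO replicate 3 (0.38, adjusted p = 0.0129). DNAJB11's 2 rows summed to 117 ± 11.5 CPM in DPT and 101 ± 2.14 in DMSO. DNAJA1, the main cytosolic DNAJA (0.16, adjusted p = 0.15, and 0.0129), and DNAJA2 (0.12, adjusted p = 0.203, and 0.0441) were called with the term too, DNAJA1 also in the 6 libraries and without DPT replicate 2 (0.20, adjusted p = 0.0475), while the mitochondrial DNAJA3 (0.07, adjusted p = 0.521, and 0.212) was not called. DNAJB4 went the other way with the term (-0.21, adjusted p = 0.0123), and DNAJB9, the ER J-protein ERdj4, had 0.18 (adjusted p = 0.465).

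The DNAJC proteins are J-proteins of varied build, many with a single set task, and 2 of the 25 tested (8%) were called higher, beside 5.68% of all tested genes. DNAJC2, a ribosome-associated J-protein also called zuotin or MPP11 (ENSG00000105821, chr7:103312474-103344873, minus strand), had 30.3, 34.8, 31.7 and 32.2 FPKM in DPT libraries, against 24, 21.7, 26.1 and 23.1 in DMSO libraries. No DPT value overlapped a DMSO value, and the log2 fold change was 0.40 (SE 0.0942, adjusted p = 0.0251). The call was lost without DPT replicate 3 or 4 or DMSO replicate 1, 2 or 4 (up to 0.0805). DNAJC2 overlaps PMPCB and PSMC2 on the opposite strand, and whether reads were assigned by strand is not stated in any source used.

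DNAJC25, a predicted membrane J-protein (ENSG00000059769, chr9:111631352-111654351), had 10.9, 12.6, 14 and 12.9 FPKM in DPT libraries and 8.2, 8.81, 9.77 and 8.95 in DMSO libraries. All 4 DPT libraries were above all 4 DMSO libraries. The log2 fold change was 0.46 (SE 0.0927, adjusted p = 0.0146), and of the 6 called members it kept its call most often, in 6 of the 8 fits without a library, losing it without DPT replicate 4 or DMSO replicate 1 (up to 0.053). DNAJC25 overlaps the read-through row DNAJC25-GNG10, whose log2 fold change was 0.10 (adjusted p = 0.716). The 2 rows together came to 39.9 ± 2.21 CPM in DPT and 31.1 ± 2.27 in DMSO (SD, n = 4 each), again without overlap.

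Of the other DNAJC proteins, DNAJC10, an ER disulfide reductase, was higher with the pair term (0.11, adjusted p = 0.0369). DNAJC13, an endosomal J-protein, was lower with it (-0.16, adjusted p = 0.00427), at 27.2 ± 0.656 FPKM in DPT and 29.7 ± 0.876 in DMSO (SD, n = 4 each) without overlap, and DESeq2 called it lower in all 8 libraries. DNAJC16, named after its values were seen, was lower too (-0.23, adjusted p = 0.0144). The ER co-chaperone DNAJC3, which also inhibits eIF2-alpha kinases, averaged 16.7 ± 0.517 FPKM in DPT and 16.5 ± 0.947 in DMSO (-0.02, adjusted p = 0.884). The cysteine string protein DNAJC5 (0.08, adjusted p = 0.448) and the HSP70 and HSP90 linker DNAJC7 (-0.05, adjusted p = 0.644) were not called under either fit. The remaining tested DNAJC rows lay between -0.46 (DNAJC22) and 0.17 (the second DNAJC14 row) on the log2 scale.

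**Figure D2:**
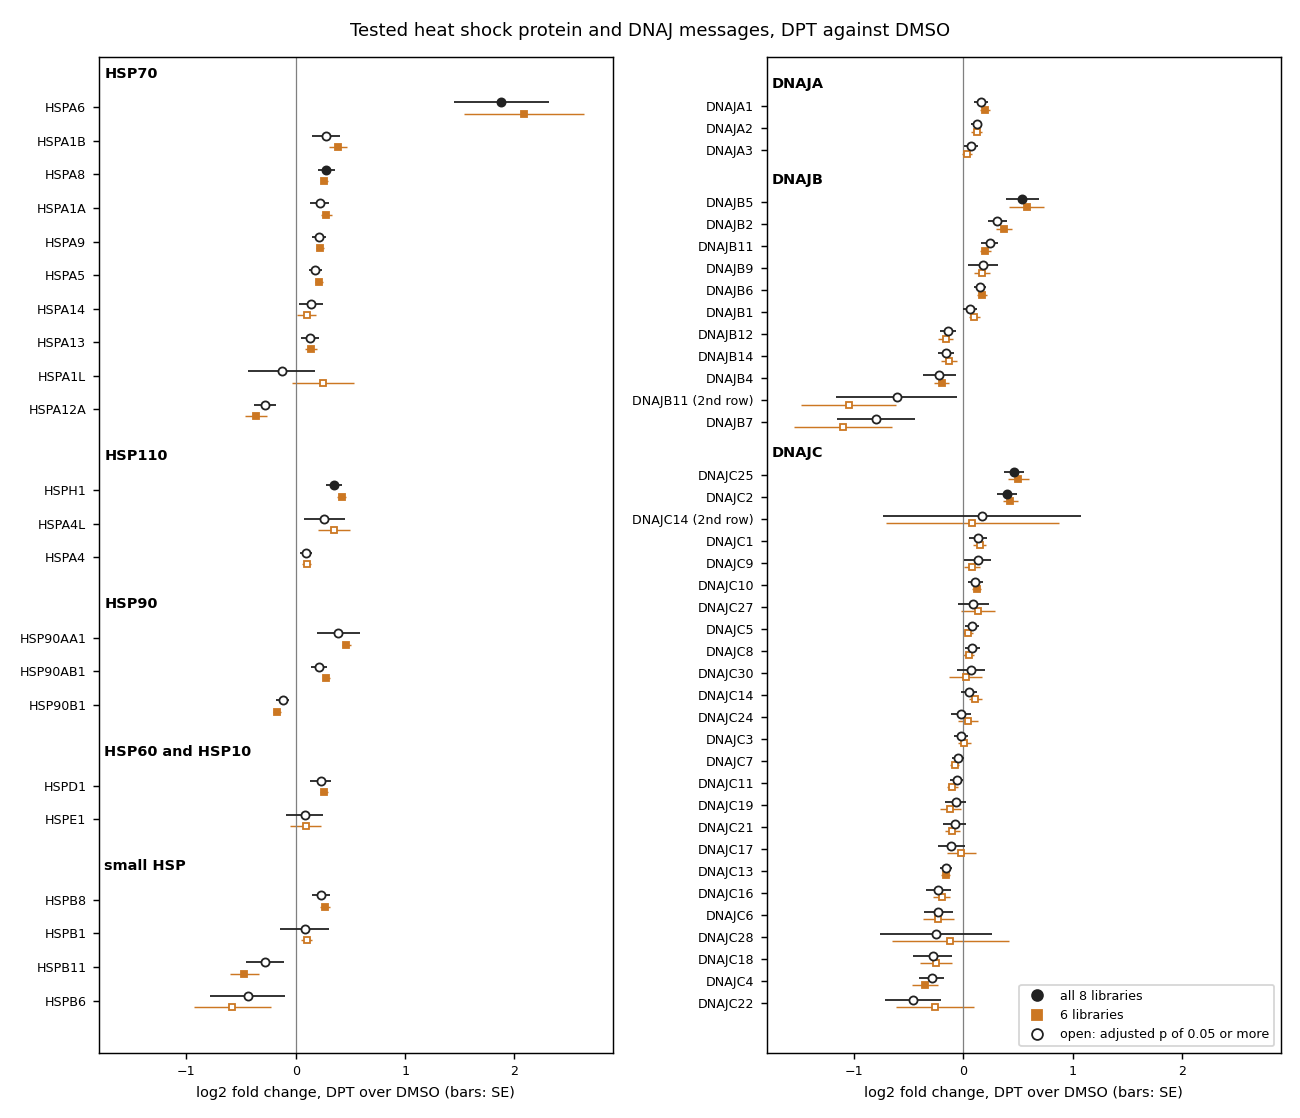
Fitted log2 fold change (DPT over DMSO) with its standard error for the 61 tested members by class, black circles for all 8 libraries and orange squares for the 6 libraries without the pair. Filled symbols mark an adjusted p under 0.05, 6 members in all 8 libraries and 26 in the 6.

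HSP90 gave 0 calls in all 8 libraries by edgeR (1 higher at an unadjusted p under 0.05, 0 calls by DESeq2), with the 2 cytosolic genes above 0 and the ER gene below it. HSP90AA1, the inducible cytosolic HSP90 (ENSG00000080824, chr14:102080738-102139699, minus strand), had 294, 448, 329 and 319 FPKM in DPT libraries, against 225, 221, 374 and 219 in DMSO libraries. DPT replicate 2 and DMSO replicate 3 were the highest of their groups. The other 3 DPT libraries were all above the other 3 DMSO libraries. Over all 8 the log2 fold change was 0.39 (SE 0.194, adjusted p = 0.243), with the pair term 0.41 (SE 0.0472, adjusted p = 6.88e-06), and without DMSO replicate 3 alone 0.61 (adjusted p = 0.0184).

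HSP90AB1, the constitutive cytosolic HSP90 (ENSG00000096384, chr6:44246166-44253888), had 766, 785, 801 and 801 FPKM in DPT libraries and 629, 635, 770.3 and 620.1 in DMSO libraries. DMSO replicate 3 alone reached the DPT range, and within the pair the difference was 0.01 on the log2 CPM scale. The log2 fold change was 0.21 (adjusted p = 0.106, 0.00162 with the term, and 0.00791 without DMSO replicate 3 at 0.28). HSP90B1, the ER HSP90 known as GRP94, had 388, 428, 373 and 388 FPKM in DPT and 413, 417, 418 and 422 in DMSO libraries. DPT replicate 2 was above every DMSO library and the other 3 DPT libraries below them all. Its log2 fold change was -0.12 (adjusted p = 0.245), and it was lower with the term (adjusted p = 0.028) and in the 6 libraries (-0.17, adjusted p = 0.0013).

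BiP and GRP94 are the classical paired targets of the unfolded protein response, and their promoters are printed because the 2 messages pointed in opposite directions with the pair term. The ER stress element, searched by its published consensus on both strands, stood in the promoters of these 2 members (2.41% of 83), beside 0.0769% (27) of all promoters. Capitals mark it in HSPA5 (chr9:125241374-125241433, minus strand) and in HSP90B1 (chr12:103930200-103930349, plus strand), whose second match reads on the reverse strand.
HSPA5: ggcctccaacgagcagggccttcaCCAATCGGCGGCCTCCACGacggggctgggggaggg
HSP90B1: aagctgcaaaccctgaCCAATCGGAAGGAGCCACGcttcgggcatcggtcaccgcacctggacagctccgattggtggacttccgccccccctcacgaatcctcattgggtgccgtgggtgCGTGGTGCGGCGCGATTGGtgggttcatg

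In mitochondria, the chaperonin subunit HSPD1, or HSP60 (ENSG00000144381, chr2:197486581-197516737, minus strand), had 412, 504, 439.8 and 446 FPKM in DPT libraries against 350.3, 352, 446 and 348 in DMSO libraries. DMSO replicate 3 lay in the DPT range and the other 3 DMSO libraries below it. The log2 fold change was 0.23 (SE 0.0964, adjusted p = 0.163, 0.000211 with the pair term, and 0.0247 without DMSO replicate 3 at 0.32). Its lid HSPE1, or HSP10, lies within the span of the HSPD1 row on the opposite strand and averaged 122 ± 12.2 FPKM in DPT and 113 ± 29.5 in DMSO (SD, n = 4 each). The read-through row HSPE1-MOB4 overlaps it on the same strand. Whether reads were assigned by strand is not stated in any source used, so the HSPE1 level is uncertain. DMSO libraries of HSPE1 ranged from 83.9 to 148 FPKM, around all 4 DPT libraries, and the log2 fold change was 0.08 (adjusted p = 0.813).

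Small heat shock proteins gave no call in all 8 libraries among 4 tested, with 1 higher at an unadjusted p under 0.05 and 0 calls by DESeq2. HSPB1, or HSP27, which also binds actin and intermediate filaments, had 153, 239, 145 and 141 FPKM in DPT libraries and 129, 129, 230.4 and 138 in DMSO libraries. The pair held the highest value of each group and the other 6 libraries lay within a narrow range, so that the log2 fold change was 0.08 (SE 0.226, adjusted p = 0.872). HSPB8, a partner of BAG3 in selective autophagy, averaged 80.3 ± 8.55 FPKM in DPT and 66 ± 2.58 in DMSO (SD, n = 4 each). It had 0.23 (adjusted p = 0.1, 0.000979 with the term, and 0.0089 without DPT replicate 2 at 0.30).

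Added up per class on the FPKM scale, HSP70 messages came to 1817 ± 71.7 in DPT and 1498 ± 65.6 in DMSO (ratio 1.21; SD, n = 4 each). HSP110 messages summed to 249.2 ± 6.43 in DPT and 201.3 ± 16.6 in DMSO (1.24, and 1.1 within the pair), and neither class overlapped between groups. DNAJA messages (214.5 ± 9.45 in DPT, 189.4 ± 2.44 in DMSO, ratio 1.13) and DNAJB messages (362.2 ± 6.2 in DPT, 329.5 ± 16.9 in DMSO, ratio 1.1) did not overlap either. On the CPM scale the DNAJB groups did overlap, at 732.7 to 767 in DPT and 684 to 748.5 in DMSO libraries (ratio 1.05), while those of HSP70, HSP110 and DNAJA did not. HSP90 messages gave 1529.6 ± 91.5 in DPT and 1340.2 ± 148 in DMSO (1.14), and those of HSP60 and HSP10 gave 573 ± 48.4 in DPT and 486.8 ± 64 in DMSO (1.18). Small heat shock proteins came to 273 ± 43.4 in DPT and 249.7 ± 46.4 in DMSO (1.09) and DNAJC to 567.9 ± 16.6 in DPT and 540.3 ± 9.42 in DMSO (1.05). In each of these 4 classes the groups overlapped. All 74 rows together held 1.24% ± 0.0373 of the summed FPKM in DPT libraries and 1.09% ± 0.07 in DMSO libraries. These sums rest on few genes, since the 5 most abundant rows held 54.0% of it in DPT and 53.5% in DMSO. Over all tested genes, the median log2 ratio of mean FPKM was 0.05, so this scale runs slightly high in DPT.

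**Figure D3:**
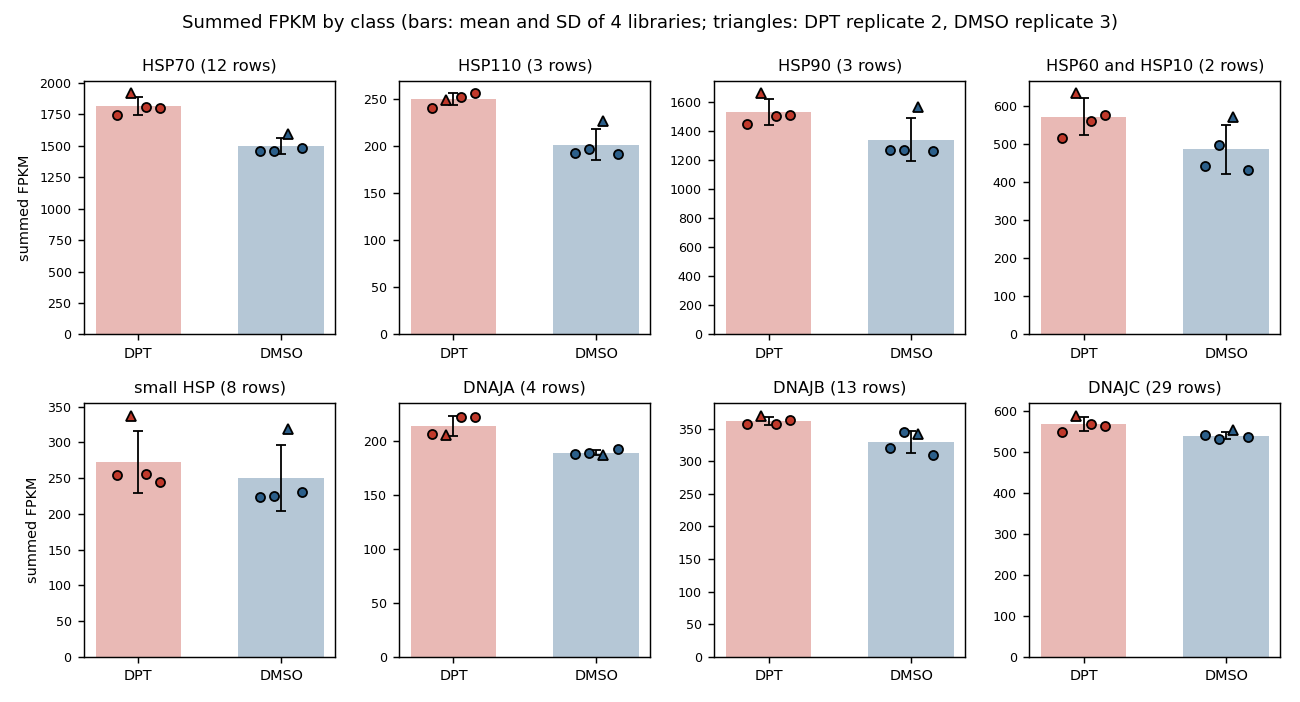
Summed FPKM of the rows of each class in each library, DPT left of DMSO, axes from 0; bars are mean and SD of 4 and triangles are DPT replicate 2 and DMSO replicate 3. The HSP70 sum is 1746 to 1917 in DPT and 1456 to 1595 in DMSO, while the HSP90 and small heat shock protein sums are led in both groups by the triangles.

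By a compartment assigned to some of the members, 5 of the 6 calls lay in the cytosol and nucleus, HSPA6 among them. There, 5 of 27 tested members (18.5%) were higher in all 8 libraries, beside 5.68% of all tested genes, with a median log2 fold change of 0.14. The 5 became 0 without any one of DPT replicates 3 and 4 and DMSO replicates 1, 2 and 4, 2 without DPT replicate 1 and 3 with no filter on low counts. Of all tested genes, 2.6% to 2.93% were higher in the fits that gave 0, 3.6% without DPT replicate 1 and 3.54% with no filter. With the pair term 13 were higher (48.1%) and 2 lower (7.41%), beside 16.9% and 17.0%. For the ER, 0 of 11 were called by edgeR (2 higher and 0 lower at an unadjusted p under 0.05, 2 higher by DESeq2), and 3 were higher and 1 lower with the term. For mitochondria, 0 of 6 were called (2 higher at an unadjusted p under 0.05, 1 by DESeq2), and 2 were higher with the term. The other 17 tested members were given no compartment, and 1 of them, DNAJC25, was called (5.88%, beside 5.68% of all tested genes). Their median log2 fold change was -0.23, with 11 of the 17 below 0. With the term 2 of them were higher and 2 lower (11.8% each), HSPB8 among the higher and HSPA12A among the lower. The counts by compartment leave these members out, which does not mean that their place is unknown. Another assignment could change the counts. The difference between compartments was not tested. Counted without a model, 12 of the 61 tested members had every DPT library above every DMSO library in CPM and 3 had every one below (DNAJC13, DNAJC4 and HSPA12A), beside 9.50% and 8.73% of all tested genes. HSPA6 is among the 12 and, having passed the filter only through the DPT libraries, lends that count no support.

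Members differed widely between the pair and the other 6 libraries, whatever the treatment, and whether they did so more than other genes was not tested. Averaged over both treatments, the pair was above the others by 0.80 on the log2 CPM scale for HSPB6, 0.75 for HSPB1, 0.63 for HSP90AA1 and 0.46 for DNAJB4, and below them by a difference of -0.47 for DNAJC18 and -0.45 for DNAJB9. The value of HSPB6 rests on 14 to 41 counts per library. Over the members the median was 0.07 and over all tested genes 0.00. Inside the pair, DPT replicate 2 was above DMSO replicate 3 for 19 of the 20 members called higher in the 6 other libraries (95.0%, beside 85.2% of all genes called higher there) and below it for 4 of the 6 called lower (66.7%, beside 86.8%). These are single libraries with no replicate of their own, and the member that went against its call among the higher ones was HSPA1B.

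**Figure D4:**
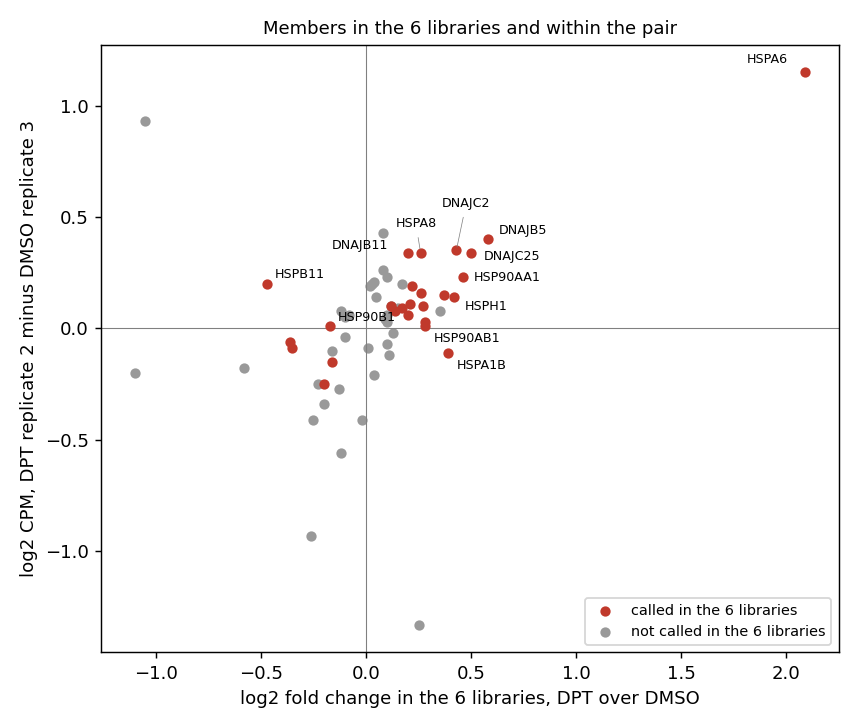
Each tested member's log2 fold change in the 6 libraries (horizontal) against the log2 CPM difference of DPT replicate 2 minus DMSO replicate 3 (vertical), red where called in the 6. Of 20 red points right of 0, 19 lie above 0, and HSPA1B lies below; of 6 left of 0, HSPB11 and HSP90B1 lie above 0.

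The regulators and partners of these chaperones were read from lists outside the symbol rule. Of 4 heat shock factor genes, 0 were higher and 1 lower in all 8 libraries (1 higher at an unadjusted p under 0.05, 0 by DESeq2), beside 5.68% and 5.29% of all tested genes. With the pair term 1 was higher and 1 lower (25% each), beside 16.9% and 17.0%. HSF1, the master regulator, was not called in all 8 libraries (23 ± 1.14 FPKM in DPT, 19.1 ± 1 in DMSO; SD, n = 4 each; 0.18 on the log2 scale, adjusted p = 0.141, 0.0439 under the term and 0.152 in the 6 libraries). HSF4, best known from the lens, was lower at a low level, with 4.16, 2.76, 3.79 and 2.65 FPKM in DPT and 6.42, 5.64, 4.42 and 4.62 in DMSO libraries. Its log2 fold change was -0.76 (adjusted p = 0.0489), and the call was lost without DPT replicate 2, 3 or 4 or DMSO replicate 1 or 2 (up to 0.137), and also with no filter on low counts.

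HSP70 and HSP90 co-chaperones had 4 of 26 genes higher (15.4%) and 1 lower (3.85%) in all 8 libraries, beside 5.68% and 5.29% of all tested genes, with a median log2 fold change of 0.15. With the term 13 of the 26 were higher and 1 lower (3.85%), beside 16.9% and 17.0%. The 4 became 1 without DPT replicate 4, DMSO replicate 1 or DMSO replicate 4, 2 without DPT replicate 3 and 9 without DMSO replicate 3. Of all tested genes, 2.6% to 2.68%, 2.61% and 6.73% were higher in those fits, in the same order. TTC4, an HSP90 co-chaperone with TPR repeats, had 25.8, 24.5, 29.1 and 25 FPKM in DPT against 18, 18.2, 18.5 and 14.8 in DMSO libraries (0.55, adjusted p = 0.00567) and kept its call without any one library. NUDC, which links HSP90 to dynein and mitosis, averaged 99 ± 5.33 FPKM in DPT and 76.2 ± 5.04 in DMSO (0.33, adjusted p = 0.0134; lost without DPT replicate 4, DMSO replicate 1 or DMSO replicate 4). AHSA1, which activates the HSP90 ATPase, averaged 65.8 ± 1.09 FPKM in DPT and 53.6 ± 1.72 in DMSO (0.25, adjusted p = 0.0182; lost without DPT replicate 3 or 4 or DMSO replicate 1 or 4). FKBP5, an immunophilin of steroid receptor complexes, was lower, at 14.9 ± 0.322 FPKM in DPT and 17.2 ± 1.27 in DMSO (SD, n = 4 each; -0.25, adjusted p = 0.0371; kept in 1 of 8 fits without a library, that without DPT replicate 2).

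Known HSF1 targets outside the chaperone symbols had 4 of 14 genes higher (28.6%) and 1 lower (7.14%) in all 8 libraries, beside 5.68% and 5.29% of all tested genes, with a median of 0.22. With the term 8 were higher (57.1%) and 1 lower, beside 16.9% and 17.0%. Without one library the count of 4 became 1 (DPT replicate 3 or 4 or DMSO replicate 1 left out), 2 (DMSO replicate 2 or 4) or 7 (DMSO replicate 3). Of all tested genes, 2.6% to 2.66%, 2.68% to 2.93% and 6.73% were higher there, in the same order. HMOX1, heme oxygenase, also an NRF2 target, had 30.6, 13.3, 39 and 34 FPKM in DPT libraries, against 10.8, 11.6, 8.66 and 11.9 in DMSO libraries. DPT replicate 2 was the lowest DPT library yet above every DMSO library (log2 fold change 1.40, adjusted p = 0.0141, kept without any one library). AHSA1 stands on this list too, as do FKBP4 and STIP1, and the other 2 genes higher were CHORDC1 (0.43, adjusted p = 0.028) and ZFAND2A (0.46, adjusted p = 0.0272). Both lost the call without DPT replicate 3 or 4 or DMSO replicate 1 or 2, and CHORDC1 also without DMSO replicate 4. SERPINH1, the collagen chaperone HSP47, was lower (121 ± 6.66 FPKM in DPT, 138 ± 7.18 in DMSO; SD, n = 4 each; -0.25, adjusted p = 0.0428; kept only without DPT replicate 2 or DMSO replicate 3, and lost with no filter on low counts). BAG3, an HSP70 exchange factor and strong HSF1 target, averaged 57.1 ± 5.91 FPKM in DPT and 58.7 ± 3.55 in DMSO (-0.06, adjusted p = 0.676, and 0.393 with the term).

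ER chaperones and unfolded protein response genes gave 0 higher and 1 lower (4.35%) of 23 in all 8 libraries, beside 5.68% and 5.29% of all tested genes. At an unadjusted p under 0.05 there were 3 higher and 6 lower, and by DESeq2 3 and 4, with a median of -0.04 in the edgeR fit. With the term 5 were higher (21.7%) and 8 lower (34.8%), beside 16.9% and 17.0% of all tested genes. The one call was SEL1L, the scaffold of ER-associated degradation, at 17.9 ± 1.55 FPKM in DPT and 20.4 ± 0.3 in DMSO (SD, n = 4 each; -0.27, adjusted p = 0.0139; lost without DPT replicate 3). Mitochondrial chaperones and proteases gave 1 higher (7.69%) and 0 lower of 13, beside 5.68% and 5.29% of all tested genes, with 0 lower at an unadjusted p under 0.05 and by DESeq2, and a median of 0.09. That was GRPEL1, the nucleotide exchange factor of mortalin, with 34.1, 31.6, 36.8 and 36 FPKM in DPT libraries and 24.2, 25.1, 25.9 and 24.7 in DMSO libraries (0.43, adjusted p = 0.00381, kept without any one library). CHORDC1 and ZFAND2A were named after their values were seen, to fill out the counts.

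**Figure D5:**
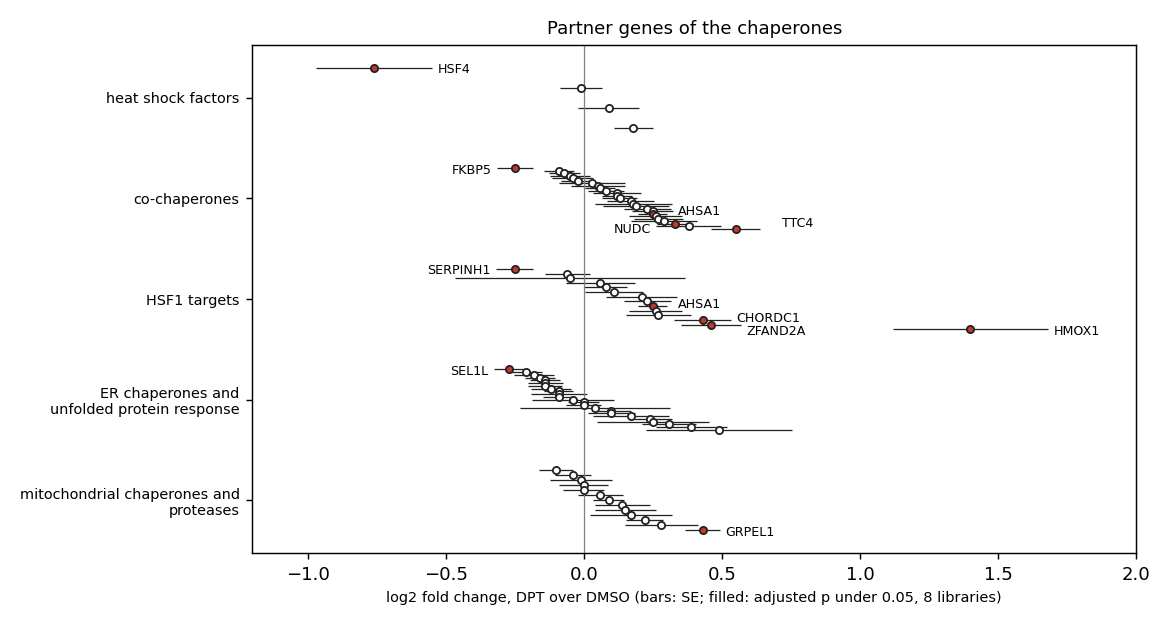
Log2 fold change (DPT over DMSO, all 8 libraries) with its standard error for the tested genes of the 5 partner lists, 1 called co-chaperone not shown; filled points with names have an adjusted p under 0.05. HMOX1 (1.40) and HSF4 (-0.76) lie farthest from 0, and AHSA1 appears in 2 lists.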

How the data were processed

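RNA from 4 DPT and 4 DMSO libraries was selected on oligo(dT) beads, per the labels' protocols. For each library the deposited table gave 2 columns, per the file headers. One held an expected count, of which 10.8% were not whole, and the other FPKM as computed by the authors. The submitters' processing notes name hg38, RSEM, HISAT2, DESeq2, fastp 0.18.0 and StringTie 1.3.1, without roles. Strand setting and annotation release were not found in any source used.

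Expected counts were rounded and fitted over the whole table with edgeR 4.0.16 in R 4.3.3 (filterByExpr with a minimum count of 10 and total of 15, TMM normalization, quasi-likelihood test, two-sided, intercept and treatment). Adjusted p is Benjamini-Hochberg over all 12648 tested genes, and SE is the fitted log2 fold change over the square root of F. The biological coefficient of variation was 14.9%, and 6.3% with the pair term. DESeq2 1.42.0, RLE size factors, no filter, a replicate block, a pair term, 6 libraries and leaving out each library were the alternatives. CPM is TMM-normalized. The fitting script was tested on simulated data. Gene coordinates are from GENCODE 29.

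Named genes were every called member, main members of each class whether or not they changed, the 10 others with the smallest p under the pair term, and up to 2 called genes each way per list with HSF1 and BAG3. The members, lists and the pair term were chosen with earlier results of these data known. The table assigns reads between similar genes by estimation, so HSPA1A with HSPA1B, read-through rows and overlapping genes such as DNAJC7 with CNP and DNAJB9 with PNPLA8 are uncertain. Of the list genes, 1 called co-chaperone and 1 leukocyte marker are counted but not reported by name here.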

Additional observations from a re-analysis of the deposited data

Results flagged for a closer look

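Within a group of 4 libraries, 15 of 88 groups examined had 1 library set far from the other 3 (a gap that took up most of the group's range, by Dixon's test). Chance flags about 1 in 20 groups where these are independent. The groups here share libraries, and the class sums repeat their own members. Most of the flags fall in the libraries of the pair, so the 15 are not separate outliers.

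In DMSO replicate 3, HSP90AA1 stood at 374 FPKM (219 to 225 in the other DMSO libraries), HSP90AB1 at 770.3 (620.1 to 635), HSPA8 at 893 (771 to 789), HSPD1 at 446 (348 to 352), HSPA5 at 347 (313 to 317) and DNAJB4 at 29.1 (20.1 to 21.2). DNAJC7 was the one member set low there, at 116 FPKM (121 to 122). HSPB1 was high in both libraries of the pair, at 239 FPKM in DPT replicate 2 (141 to 153 in the other DPT libraries) and 230.4 in DMSO replicate 3 (129 to 138). The sums followed, with small heat shock proteins at 337.6 FPKM in DPT replicate 2 and 319.1 in DMSO replicate 3, and HSP90 at 1562 and HSP110 at 226 in DMSO replicate 3. Outside the pair, HSPA6 was low in DMSO replicate 2 at 0.028 FPKM (0.137 to 0.148), which is 1 count, and the second DNAJB11 row was low in DPT replicate 3 at 0.871 FPKM (6.35 to 7.42).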

How the results depend on the processing

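Genes called higher over the whole table were 718 in all 8 libraries, 2140 with the pair term, 2158 in the 6 libraries and 332 to 1183 without one library. Genes called lower were 669, then 2156, 2169 and 311 to 1108 in the same order. By DESeq2, 1016 genes were higher and 988 lower. Members called higher were 6, with 11 by DESeq2, 4 without the filter on low counts (HSPA8 at 0.27 and DNAJB5 at 0.53 lost the call), 20 with the pair term, 20 in the 6 libraries and 0 to 11 without one library. Members called lower were 0, with 1 by DESeq2, 5 with the term, 6 in the 6 libraries and 0 to 1 without one library. Partner genes called higher over the 5 lists were 8, with 15 by DESeq2, 26 with the term, 24 in the 6 libraries and 3 to 15 without one library. Those called lower were 4, with 7 by DESeq2, 2 without the filter on low counts, 11 with the term, 12 in the 6 libraries and 0 to 5 without one library. The cause of these shifts was not tested.

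Deviations from the group means correlated at 0.204, -0.314, -0.396 and 0.209 between same-numbered libraries. DPT replicate 2 and DMSO replicate 3, which stood apart, weigh on these values. The correlations therefore cannot show whether the numbers pair the libraries. A fit with the replicate block called 171 genes higher and 174 lower, 1 member higher (DNAJC25) and 0 lower, and 2 partner genes higher and 0 lower, among them 1 co-chaperone and 0 HSF1 targets. In the cytosol and nucleus it called 0 members.

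Directions reversed for uncalled genes near 0. DNAJC3 (-0.02 in all 8 libraries) was 0.01 in the 6 libraries and -0.06 to 0.00 without one library, HSPE1 (0.08) was -0.04 to 0.23, and HSPB1 (0.08) was -0.14 to 0.31. RLE size factors changed no call of a named gene. The ratios of the class sums moved by less than the spread between libraries on the CPM scale, in the 6 libraries and without one library, but within the pair that of HSP110 was 1.1, beside 1.24. At this depth, changes of members under about 1 CPM, such as HSPA6, rest on a few counts.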
